A study of Rattus norvegicus with 36 samples.

Results

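H9C2 cells, a rat cardiac myoblast line, were compared in hypoxia after transfection of Trim AG, a shortened form of miR-125b, or of miR-125b itself. The comparison took the 3 libraries of Trim AG and the 3 of miR-125b, chosen by the group that the labels give them, so that 6 of the 36 libraries of the series were its members. The labels call the Trim AG libraries Trim 2, which the study's figure legend names as the form without AG. Both groups received 25 nmol/L of mimic for 24 h and were then kept for 24 h below 0.2% oxygen in low-glucose medium without serum. A further 3 hypoxia libraries of a mimic control (MC) give the level of each gene with neither of these mimics added. The cells' own miR-125b forms were not measured in these libraries. The hypoxia libraries of the isomiRs Trim A and Trim AGU (Trim 1 and Trim 3 in the labels), 3 of each, received the same dose and medium and are set beside Trim AG, and 3 libraries each of miR-125b and Trim AG in normoxia, kept in fresh standard medium, give the same contrast at the other oxygen level. Oxygen and medium changed together, so their parts cannot be told apart. The labels number the libraries without saying that they came from separate cultures, so p-values measure the spread between these libraries, which may be technical. H9C2 is a single immortal line and not an adult cardiomyocyte, and the level of the mimics themselves was not measured in these poly-A libraries.

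The libraries of Trim AG held 39940087 to 42672584 counts and those of miR-125b 29091343 to 30994490. Trim AG was thus read more deeply, and with its counts thinned to 29091343 per library the comparison called 1192 genes higher and 1697 lower, against 1202 and 1757 without thinning. Mitochondrial genes took 3.52%, 5.29% and 4.57% of the counts in Trim AG replicates 1 to 3 and 3.46% to 3.58% in miR-125b. The replicates of Trim AG also differed more from each other, the chi-square per gene between a pair being 28.03 or more against at most 5.38 in miR-125b. Of the 11 markers of a cardiac myoblast line, 8 averaged at least 1 CPM (counts scaled to the library total). *Vim* was at 2689 to 3106 CPM over the 6 libraries, while *Des*, the muscle intermediate filament, was at only 1.38 to 1.82 CPM and *Myf5* and *Tbx5* were at or near 0. The summed markers of endothelium, macrophages and fat came to at most 3.37 CPM in any of the 6 libraries, where the endothelial sum holds 2 of 5 markers (*Tek* and *Vwf*). Those of epithelium came to 133 to 142 CPM with miR-125b and 48.3 to 56.6 CPM with Trim AG, nearly all from *Krt8*, with *Epcam* and *Cdh1* near 0. Those of neurons and glia came to 24.3 to 27.7 and 52.1 to 56.8 CPM, nearly all from *Tubb3*, and the part of other cells in the results was not tested.

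A microRNA guides the silencing complex to messenger RNAs that pair with its seed, the bases near its 5′ end, and lowers their translation or stability. IsomiRs are forms of a microRNA that differ by a few bases at an end. Changes at the 3′ end leave the seed as it is. miR-125b is known in heart and muscle for targets among pro-apoptotic genes and for a part in myoblast differentiation.

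The mature sequences show how the mimics differ. They are the RefSeq sequence of rat miR-125b (chr11:29732588-29732609 of GRCr8, plus strand, bases 1 to 22) and the isomiRs derived from it by the bases in their names, which read from the 3′ end. Capitals mark the seed, bases 2 to 8.
miR-125b: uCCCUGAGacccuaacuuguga
Trim A: uCCCUGAGacccuaacuugug
Trim AG: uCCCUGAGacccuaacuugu
Trim AGU: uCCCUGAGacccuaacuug
Trim AG has 20 bases where miR-125b has 22, and the seed is the same in all 4. The comparison of Trim AG with miR-125b therefore sets side by side mimics that differ by the last 2 bases. The amount of each mimic in the cells was not measured in these libraries and may differ as well. The study measured the transfected forms in H9C2 cells by RT-qPCR, in data not used here.

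Trim AG differed from miR-125b in hypoxia in a large share of the transcriptome. Among the lists, all 39 mitosis genes, 29 of 43 replication genes and 13 of 24 smooth muscle and SRF-dependent genes were called higher. Called lower were 22 of 36 collagen genes, 18 of 32 other matrix genes, 16 of 27 interferon-stimulated genes and *Myog*, a myogenic factor. Of 15305 genes tested with edgeR's quasi-likelihood test, 1202 (7.85%) were higher and 1757 (11.5%) lower with Trim AG, which are the calls below (Benjamini-Hochberg adjusted p under 0.05 and a change of 1.5-fold or more). The median log2 fold change of all genes tested was -0.00. Each later count of calls in hypoxia stands beside the shares of 7.85% and 11.5%. The lists were drawn up with earlier results of these data known, so their counts are descriptions. Fold changes are Trim AG over miR-125b on the log2 scale, and levels are CPM.

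**Figure D1:**
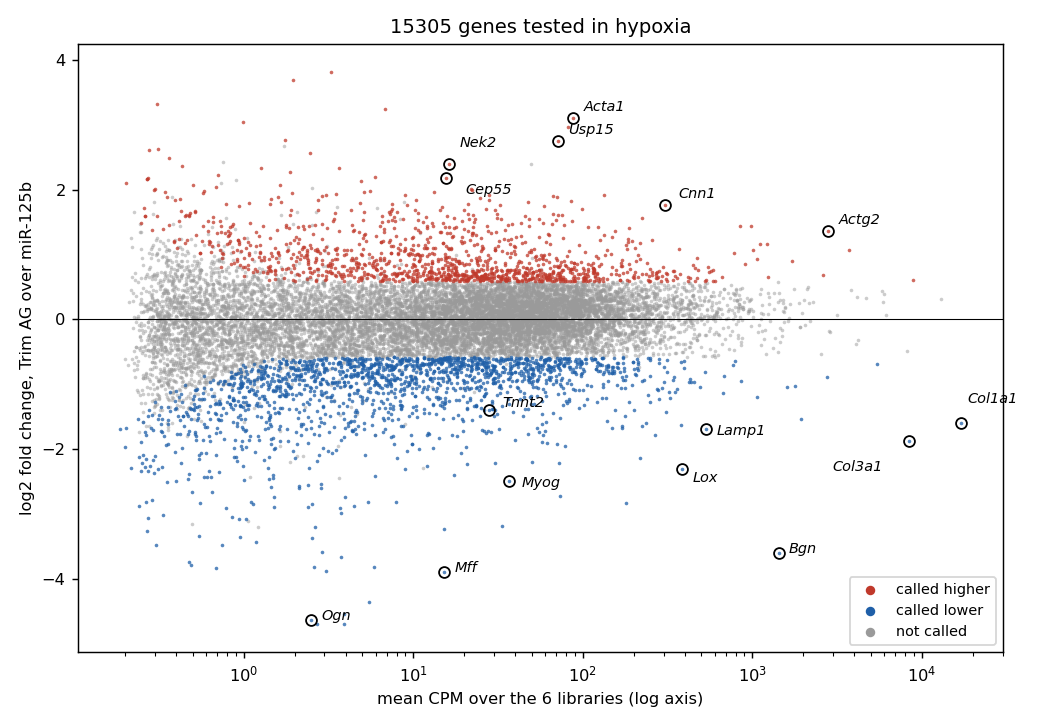
Log2 fold change of Trim AG over miR-125b in hypoxia (vertical axis) against the mean CPM of the 6 libraries (horizontal log axis) for 15305 genes. Red points are the 1202 genes called higher, blue points the 1757 called lower and grey points those not called. *Col1a1* and *Col3a1*, the circled points farthest to the right, lie below 0, and *Acta1*, at 3.11, has the highest value among genes above 10 CPM.

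Genes of mitosis and the spindle were the most uniform group. All 39 members tested were called higher, with log2 fold changes of 1.00 to 2.18 and a median of 1.54, against 7.85% of all genes. *Cep55*, which acts in the final separation of daughter cells, was at 5.94, 5.79 and 5.25 CPM in the miR-125b libraries and at 22.7, 29.9 and 24.6 CPM with Trim AG. The lowest Trim AG library of *Cep55* was above the highest miR-125b library, and MC, at 6.05 to 6.79 CPM, was close to miR-125b. The log2 fold change of *Cep55* was 2.18 ± 0.13 (SE, adjusted p = 2.2e-05, edgeR). *Cdca3*, a trigger of mitotic entry, was at 7.57 to 9.21 CPM with miR-125b and 30.4 to 42.3 CPM with Trim AG (log2 2.02 ± 0.15). *Hmmr*, a spindle and hyaluronan-binding protein, was at 7.54 to 9.75 and 29.1 to 42.7 CPM (log2 1.99 ± 0.16). *Birc5*, which encodes the chromosomal passenger survivin, was at 18.9 to 21.5 and 49.8 to 64.9 CPM (log2 1.47 ± 0.11). The groups did not overlap for any of these genes, as was the case for 54.4% of all genes tested, the share against which each later statement of no overlap stands. *Nek2*, a centrosome kinase outside the list and among the largest changes of all genes, was at 5.81, 4.45 and 5.22 CPM with miR-125b and 25.5, 28.4 and 28.1 CPM with Trim AG (log2 2.40 ± 0.12, adjusted p = 1.4e-05, edgeR).

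Widely used markers of cycling cells, picked from the list members after their values were seen, are given as examples and add no further calls. *Mki67* was at 43.1, 48.6 and 46.9 CPM with miR-125b and 156, 157 and 141 CPM with Trim AG (log2 1.71). *Top2a*, the topoisomerase that untangles chromosomes, was at 36.7 to 37.4 and 106 to 127 CPM (log2 1.61). *Ccnb1*, the cyclin of mitotic entry, was at 20.0 to 22.7 and 61.2 to 89.97 CPM (log2 1.81). Summed over the list, mitosis genes took 779 to 812 CPM with miR-125b, 2238 to 2645 CPM with Trim AG and 575 to 611 CPM with MC. In bulk RNA, more cycling cells and more of these transcripts per cell cannot be told apart. The 39 calls were the same in number in each of 13 alternative fits, including those without each library in turn.

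Promoters of mitosis genes often carry the cell cycle genes homology region (CHR), a short element through which cell cycle complexes repress them outside mitosis. RefSeq promoters of 300 bases, from 250 before to 50 after the start in GRCr8, were matched to 33 of the 39 members. TTTGAA, the CHR letters searched on both strands, occurred in 24 of them (72.7%), against 18.1% of all 27457 promoters and 11.9% of those of the genes tested. CCAAT, also searched on both strands, occurred in 72.7% of the mitosis promoters and in 37.7% of all. It was also found in 65.6% of the replication promoters and 55.6% of those of smooth muscle and SRF-dependent genes. The CHR was held by 21.3% of the promoters of genes called higher and 9.84% of those of genes called lower. A match describes the sequence and shows no binding. The promoters of *Cep55* and *Hmmr*, the members named by rule with the largest changes that hold a CHR, are printed with the match in capitals.
Cep55, chr1:245245113-245245412, plus strand: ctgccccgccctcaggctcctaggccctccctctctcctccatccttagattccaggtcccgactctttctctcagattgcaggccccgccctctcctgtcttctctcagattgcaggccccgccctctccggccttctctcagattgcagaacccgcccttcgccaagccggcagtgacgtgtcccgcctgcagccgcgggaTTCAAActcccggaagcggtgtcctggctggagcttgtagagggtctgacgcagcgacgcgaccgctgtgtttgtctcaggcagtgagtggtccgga
Hmmr, chr10:25665166-25665465, minus strand: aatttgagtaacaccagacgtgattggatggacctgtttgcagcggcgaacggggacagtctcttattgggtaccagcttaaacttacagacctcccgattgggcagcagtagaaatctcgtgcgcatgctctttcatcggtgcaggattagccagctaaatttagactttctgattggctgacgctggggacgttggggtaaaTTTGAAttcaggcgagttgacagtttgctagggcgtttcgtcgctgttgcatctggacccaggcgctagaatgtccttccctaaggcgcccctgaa

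Most DNA replication and G1/S genes were called higher, 29 of 43 members tested against 0 lower, with a median log2 fold change of 0.76. Without Trim AG replicate 1 or miR-125b replicate 1, 1 member was called lower. *Gins3* and *Gins1*, subunits of the GINS complex of the replicative helicase, had log2 fold changes of 1.68 ± 0.24 and 1.53 ± 0.14. *Gins3* was at 4.55, 3.41 and 2.55 CPM with miR-125b and 9.49, 14.3 and 9.90 CPM with Trim AG. *Mcm5*, a subunit of the MCM helicase, was at 19.5, 17.97 and 20.7 CPM with miR-125b and 54.2, 49.9 and 48.1 CPM with Trim AG (log2 1.38 ± 0.08, adjusted p = 2.4e-05, edgeR). The groups did not overlap for these 3 genes. The E2F letters GCGGGAA, on either strand, were found in 12 of the 32 promoters matched (37.5%), against 4.47% of all promoters and 8.22% of those of genes tested. The CHR was found in 2 of these 32. The promoter of *Gins3* is printed with its GCGGGAA in capitals.
Gins3, chr19:9434630-9434929, minus strand: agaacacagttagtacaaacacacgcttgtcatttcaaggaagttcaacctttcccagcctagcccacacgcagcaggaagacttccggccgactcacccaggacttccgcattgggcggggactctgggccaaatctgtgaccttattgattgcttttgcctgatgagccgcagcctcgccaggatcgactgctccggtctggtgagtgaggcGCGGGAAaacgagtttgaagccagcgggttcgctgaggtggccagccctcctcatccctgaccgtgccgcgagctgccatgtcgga

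**Figure D2:**
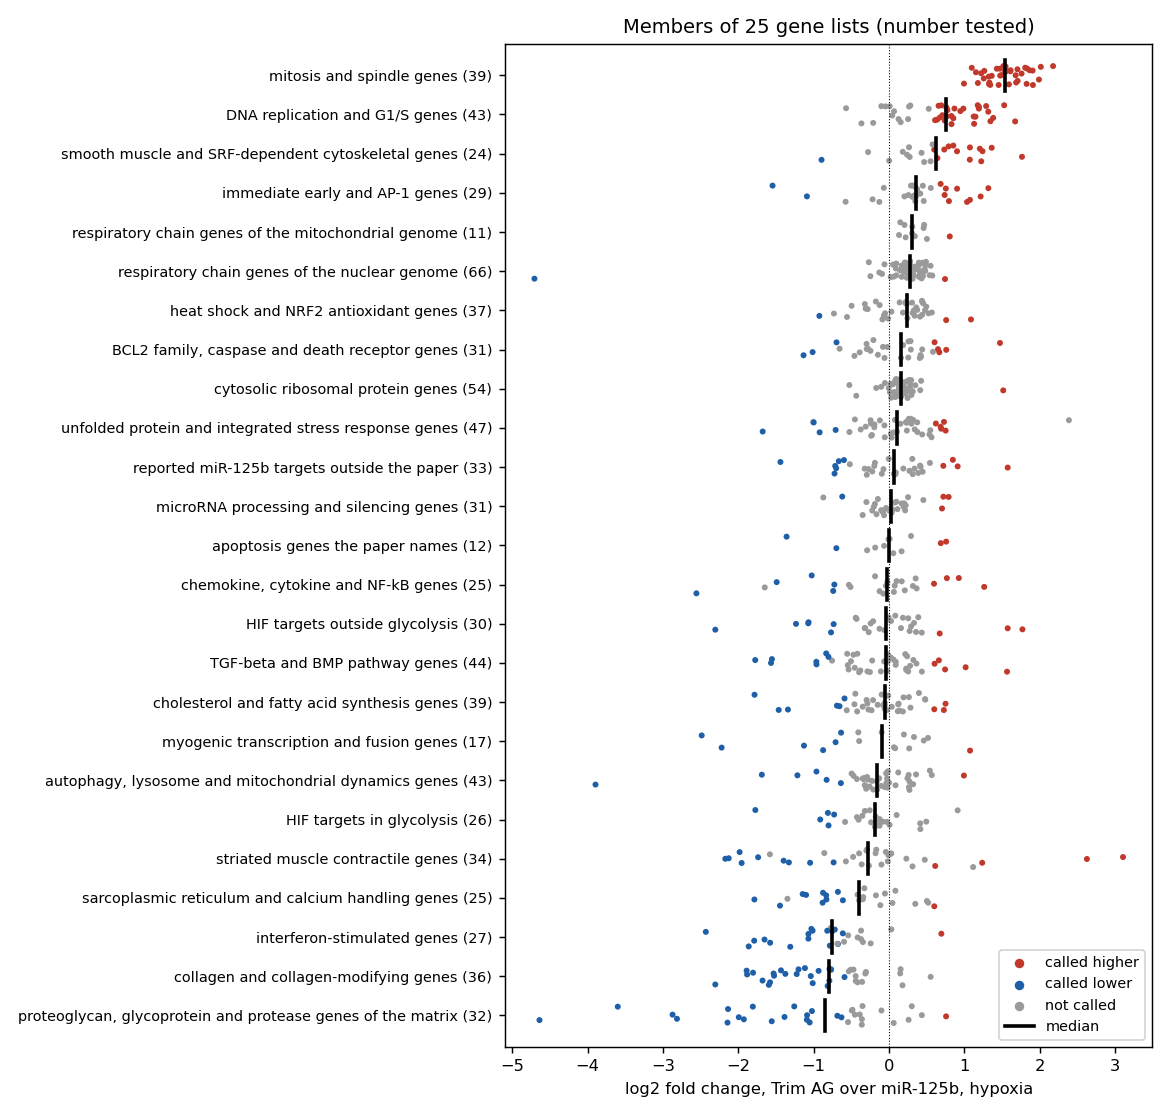
Log2 fold change of Trim AG over miR-125b in hypoxia (horizontal axis) for the tested members of 25 gene lists (rows, ordered by median, number tested in brackets). Each point is a gene, red if called higher, blue if called lower and grey if not called, and the black bar is the median of the list. The 39 mitosis genes lie from 1.00 to 2.18, whereas the medians of the collagen and matrix lists are -0.80 and -0.85.

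Smooth muscle and serum response factor (SRF) dependent cytoskeletal genes were mostly higher with Trim AG. SRF is a transcription factor that binds CArG boxes and switches on contractile and actin genes when monomeric actin is scarce. Of 24 members tested, 13 were called higher and 1 lower, with a median of 0.62. *Cnn1*, the actin-binding calponin, was at 135, 145 and 134 CPM with miR-125b and 434, 495 and 486 CPM with Trim AG (log2 1.77 ± 0.08, adjusted p = 1.2e-05, edgeR). *Actg2*, smooth muscle gamma-actin, was at 1566, 1589 and 1566 CPM and at 4018, 4009 and 4160 CPM (log2 1.36 ± 0.06). *Lmod1*, a nucleator of smooth muscle actin filaments, was at 107 to 112 CPM and 247 to 272 CPM (log2 1.24 ± 0.07). *Srf* itself was at 87.1 to 91.0 CPM with miR-125b and 176 to 204 CPM with Trim AG (log2 1.08 ± 0.07). All 3 Trim AG libraries were above all 3 miR-125b libraries for each of these genes. *Tagln*, chosen after its values were seen and among the most abundant members, was at 2406 to 2407 CPM and 4523 to 5503 CPM (log2 1.07).

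*Actb*, cytoplasmic beta-actin and a common reference gene, was the member called lower. Its level was 3503, 3651 and 3622 CPM with miR-125b and 1967, 1974 and 1870 CPM with Trim AG, and 5020 to 5277 CPM with MC. The log2 fold change was -0.89 ± 0.06 (adjusted p = 4.3e-05, edgeR), and the groups did not overlap. A list sum of 28775 to 29621 CPM with miR-125b stood against 42477 to 43517 CPM with Trim AG.

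Immediate early and AP-1 genes, which respond to growth factors and stress within minutes, were called higher for 9 of 29 members and lower for 2, with a median of 0.36. Without any 1 library other than Trim AG replicate 1, only 1 was called lower. *Ier3*, a survival-linked early gene, was at 35.2 to 36.6 CPM with miR-125b and 87.3 to 91.4 CPM with Trim AG (log2 1.32 ± 0.07). *Dusp1*, a phosphatase that switches off MAP kinases, was at 73.3 to 78.6 and 175 to 181 CPM (log2 1.22 ± 0.06). MC lay between the groups for both genes, at 59.1 to 61.6 CPM for *Ier3* and 100 to 111 CPM for *Dusp1*. The CArG box was found in 6 of the 20 promoters matched for this list (30.0%) and in 3 of 18 of the smooth muscle and SRF list (16.7%), against 1.64% of all promoters.

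Striated muscle genes moved in both directions. Of 34 contractile genes tested, 4 were called higher and 9 lower, with a median of -0.28, and without Trim AG replicate 3 the 4 became 2. *Acta1*, skeletal muscle alpha-actin, had the largest increase among genes named by rule. It was at 158, 154 and 164 CPM with MC, at 16.8, 18.8 and 19.1 CPM with miR-125b and at 176, 139 and 158 CPM with Trim AG. The Trim AG libraries thus spanned the MC level, and miR-125b lay far below both. The log2 fold change of *Acta1* was 3.11 ± 0.10 (adjusted p = 5.9e-06, edgeR), and 0.01 for Trim AG over MC against -3.10 for miR-125b over MC, comparisons that share libraries.

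*Tnnt2*, cardiac troponin T, went the other way. It was at 282, 303 and 293 CPM with MC, at 40.3, 39.9 and 42.1 CPM with miR-125b and at 14.4, 16.3 and 15.8 CPM with Trim AG. The 3 groups did not overlap, and Trim AG was the lowest. The log2 fold change of *Tnnt2* was -1.40 ± 0.08 (adjusted p = 1.9e-05, edgeR). *Mybph*, a myosin-binding protein of the sarcomere, was at 63.8 to 66.8 CPM with MC, 9.63 to 10.6 CPM with miR-125b and 2.37 to 3.47 CPM with Trim AG (log2 -1.74 ± 0.17). *Tnnc2*, fast skeletal troponin C, chosen after its values were seen, was instead at 19.7 to 21.6 CPM with miR-125b and 40.5 to 54.0 CPM with Trim AG (log2 1.24).

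The promoter of *Acta1* is printed because it holds a CArG box, in capitals, as 3 of the 29 promoters matched for this list did.
Acta1, chr19:68784145-68784444, minus strand: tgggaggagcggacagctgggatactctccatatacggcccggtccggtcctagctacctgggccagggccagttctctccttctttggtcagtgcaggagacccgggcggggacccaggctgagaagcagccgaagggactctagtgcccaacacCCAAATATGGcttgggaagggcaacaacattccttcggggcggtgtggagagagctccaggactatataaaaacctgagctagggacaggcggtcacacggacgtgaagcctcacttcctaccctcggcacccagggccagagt

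Genes of myogenic transcription and fusion were called higher for 1 of 17 members and lower for 6. *Myog*, the transcription factor that commits myoblasts to differentiation, was at 339, 344 and 324 CPM with MC, at 62.5, 62.0 and 61.4 CPM with miR-125b and at 11.5, 10.4 and 11.4 CPM with Trim AG. Each step down was far larger than the spread within a group. The log2 fold change of *Myog* was -2.49 ± 0.07 (adjusted p = 3.8e-06, edgeR). *Igfbp5*, a binding protein of insulin-like growth factors that rises in differentiating muscle, was at 113 to 124 CPM with miR-125b and 16.8 to 34.9 CPM with Trim AG (log2 -2.22 ± 0.22). *Tmem8c*, which encodes the fusion protein myomaker, was the member called higher. It was at 5.25 to 6.41 CPM with miR-125b, 10.5 to 14.2 CPM with Trim AG and 25.9 to 27.5 CPM with MC (log2 1.08 ± 0.15). *Myod1*, the factor upstream of *Myog* and chosen after its values were seen, was not called, at 40.0 to 41.2 and 26.1 to 37.3 CPM.

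Sarcoplasmic reticulum and calcium handling genes were called higher for 1 of 25 members and lower for 10, with a median of -0.40. Without miR-125b replicate 1, 2 were called higher. *Cacna1g*, a T-type calcium channel, was at 10.99 to 11.9 CPM with miR-125b and 3.59 to 6.70 CPM with Trim AG (log2 -1.10 ± 0.20). *Itpr3*, a calcium release channel, was at 66.8 to 73.7 and 31.5 to 46.9 CPM (log2 -0.88 ± 0.13). *Cacnb1*, a calcium channel subunit of skeletal muscle, was at 6.74 to 8.30 and 3.15 to 5.17 CPM (log2 -0.83 ± 0.19). In each of them the groups did not overlap.

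**Figure D3:**
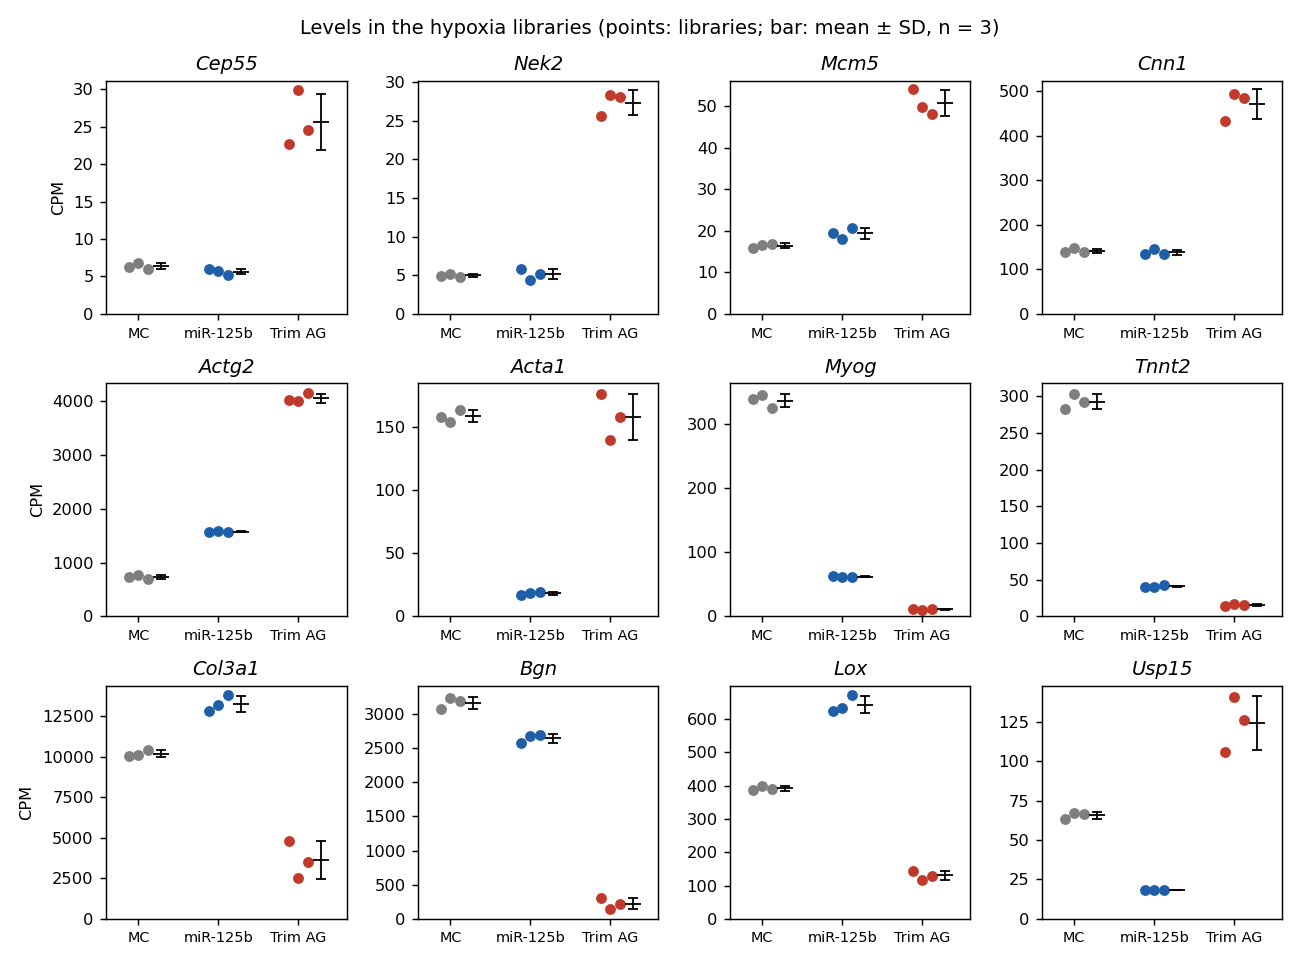
Level in CPM (vertical axes, from 0) of 12 genes in the 3 hypoxia libraries of MC (grey), miR-125b (blue) and Trim AG (red), with the mean ± SD (n = 3) in black. *Acta1* with Trim AG, at 139 to 176 CPM, is near MC, while *Myog* and *Tnnt2* fall from MC to miR-125b and again to Trim AG.

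Most collagen and collagen-modifying genes were called lower with Trim AG. Collagens are the fibres of the extracellular matrix, and the enzymes of the list hydroxylate, trim and crosslink them. Of 36 members tested, 22 were called lower, against 11.5% of all genes, and 0 higher, with a median of -0.80. *Col3a1*, the chain of type III collagen, was at 12830, 13210 and 13802 CPM with miR-125b and 4829, 2494 and 3520 CPM with Trim AG, and at 10022 to 10429 CPM with MC. The log2 fold change of *Col3a1* was -1.88 ± 0.20 (adjusted p = 0.00026, edgeR). *Lox*, which crosslinks collagen and elastin, was at 623, 634 and 672 CPM and at 145, 117 and 130 CPM (log2 -2.30 ± 0.09). *Col6a3*, a chain of the microfibrillar type VI collagen, was at 86.7 to 94.4 and 13.0 to 38.9 CPM (log2 -1.89 ± 0.32). *Col1a1*, the most abundant member and chosen after its values were seen, was at 24860, 25399 and 26191 CPM and at 12196, 5387 and 7840 CPM (log2 -1.59). No Trim AG library reached the lowest miR-125b library for these genes.

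Proteoglycans, glycoproteins and proteases of the matrix were called lower for 18 of 32 members and higher for 1, or for 2 without Trim AG replicate 2, with a median of -0.85. *Bgn*, the small proteoglycan biglycan, was at 2570, 2674 and 2692 CPM with miR-125b and 301, 142 and 214 CPM with Trim AG (log2 -3.60 ± 0.24, adjusted p = 3.4e-05, edgeR). With MC it was at 3069 to 3237 CPM, above both. *Ogn*, the proteoglycan osteoglycin, had one of the largest decreases of all genes, from 4.28, 5.70 and 4.496 CPM to 0.283, 0.1997 and 0.0921 CPM (log2 -4.64 ± 0.33). *Fmod*, fibromodulin, was at 8.93 to 9.93 and 0.474 to 2.03 CPM (log2 -2.81 ± 0.39). *Mmp14*, a membrane-bound protease that cuts collagen, was at 346 to 363 and 59.2 to 106 CPM (log2 -2.14 ± 0.18).

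The size of the matrix decrease varied among the Trim AG libraries. The summed level of the collagen list was 33414, 19640 and 25936 CPM in replicates 1 to 3, against 60360 to 63361 CPM with miR-125b and 46039 to 47255 CPM with MC. The share of mitochondrial counts, 3.52%, 5.29% and 4.57% in the same replicates, ran in the reverse order of the collagen sum, and its part in the result was not tested. The same order by number held in the other shortened forms in hypoxia. Trim A had collagen sums of 55761, 33737 and 36748 CPM and mitochondrial shares of 3.41%, 5.01% and 4.47%. Trim AGU had 44789, 27366 and 31796 CPM and 3.29%, 5.70% and 4.45%. That order did not hold in miR-125b (mitochondrial shares of 3.58%, 3.55% and 3.46%) or in MC (3.78%, 3.75% and 3.58%). No label explains it, and a difference in handling between the shortened forms and miR-125b cannot be told apart from the mimics. Replicate 1 of Trim AG had a mitochondrial share within the range of miR-125b. Over the collagen list its median difference from the mean of miR-125b was -0.51 in log2(CPM + 1), and that of replicate 2 was -1.11. Without replicate 2 the test called 22 collagen members lower and 1 higher, without miR-125b replicate 2 it also called 1 higher, and without replicate 1 it called 29 lower. With a trend on gene length removed it called 21 lower.

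**Figure D4:**
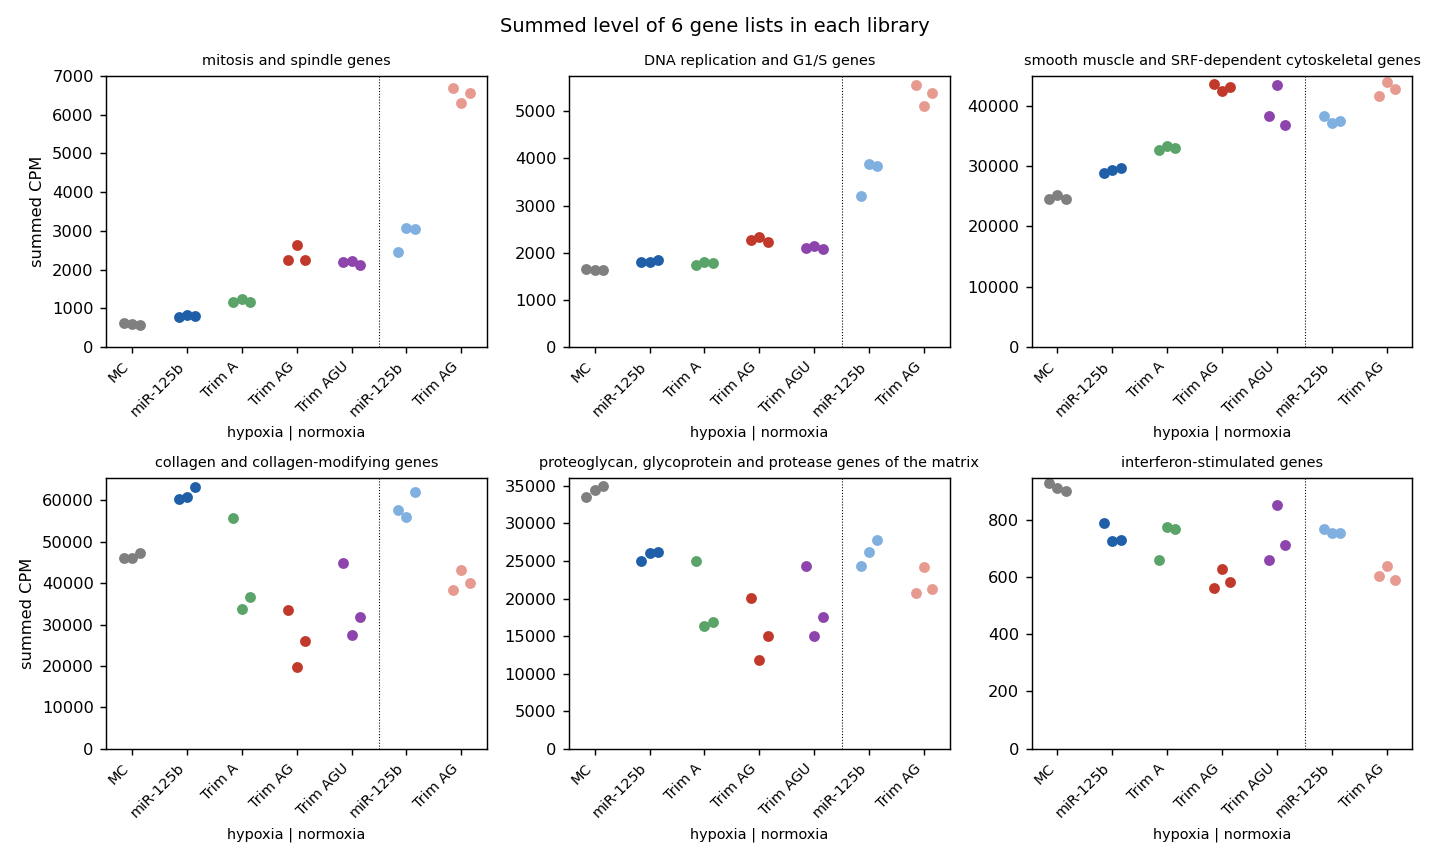
Summed CPM (vertical axes, from 0) of 6 gene lists in each library of 5 hypoxia groups and 2 normoxia groups, with 1 point per library and normoxia to the right of the dotted line. Mitosis genes reach 2238 to 2645 CPM with Trim AG in hypoxia against 779 to 812 CPM with miR-125b, and the 3 collagen sums of Trim AG spread from 19640 to 33414 CPM.

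Apoptosis genes named in the study's text were split. Of 12 tested and reported here, 2 were called higher and 2 lower, and the median was 0.0020. *Bmf*, which encodes a BH3-only protein that opposes BCL2, was at 33.8, 34.7 and 36.8 CPM with MC, at 12.2, 10.4 and 13.8 CPM with miR-125b and at 5.43, 3.92 and 4.86 CPM with Trim AG (log2 -1.36 ± 0.16, adjusted p = 0.00040, edgeR). *Bcl2l11*, which encodes the BH3-only protein BIM, was at 34.3 to 36.9 CPM with miR-125b and 20.5 to 24.3 CPM with Trim AG (log2 -0.70 ± 0.08). Every Trim AG library of both genes lay below every miR-125b library, which in turn lay below MC.

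*Bak1*, which encodes a pore-forming executioner of apoptosis, was higher with Trim AG. It was at 59.9, 59.7 and 57.5 CPM with MC, at 35.6, 35.8 and 36.3 CPM with miR-125b and at 64.5, 56.4 and 62.1 CPM with Trim AG (log2 0.76 ± 0.07, adjusted p = 0.00015, edgeR). The Trim AG level of *Bak1* spanned that of MC. *Tp53inp1*, a stress-induced protein of autophagy and cell death, was at 18.2 to 21.2 CPM with miR-125b, 27.5 to 37.1 CPM with Trim AG and 35.9 to 43.1 CPM with MC (log2 0.69 ± 0.12, adjusted p = 0.0025). In a fit of all hypoxia libraries together, *Tp53inp1* had an adjusted p of 0.11 and was not called, nor was it without Trim AG replicate 3 (log2 0.58).

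The other 8 genes of this list were not called. *Tp53inp2* had a log2 fold change of -0.29 ± 0.07 without overlap between the groups. *Dram2* had 0.29 ± 0.13, *Hif1an* 0.17 ± 0.11 and *Traf6* 0.06 ± 0.13. *Bax* had 0.01 ± 0.07, *Casp2* -0.01 ± 0.08, *Klf13* -0.06 ± 0.23 and *Tnfrsf1b*, at under 1 CPM in both groups, -0.18 ± 0.33. *Tnfrsf1b* and *Traf6*, receptor and adaptor of inflammatory signalling, were at 1.33 to 1.74 and 7.81 to 10.2 CPM with MC, above both mimics.

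Over the wider list of BCL2 family, caspase and death receptor genes, 5 of 31 members were called higher and 3 lower. These shares were 16.1% and 9.68%, beside 7.85% and 11.5% of all genes tested. The largest change of the list was the increase of *Birc5* (log2 1.47), described above with the mitosis genes. *Casp8*, the initiator caspase of death receptors, was at 9.08 to 10.4 CPM with miR-125b and 4.25 to 4.65 CPM with Trim AG (log2 -1.13 ± 0.12). *Tradd*, an adaptor of the TNF receptor, was at 42.2 to 44.98 and 19.7 to 22.8 CPM (log2 -1.01 ± 0.08).

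Genes reported elsewhere as miR-125b targets showed no common direction. Of 33 tested, 4 were called higher and 6 lower, with a median of 0.07. *Edn1*, the vasoconstrictor endothelin, was at 4.81 to 6.87 CPM with miR-125b, 15.6 to 19.1 CPM with Trim AG and 9.88 to 11.3 CPM with MC (log2 1.58 ± 0.15). *Cdc25c*, the phosphatase that starts mitosis, was at 9.83 to 11.3 and 18.2 to 22.6 CPM (log2 0.91 ± 0.11). *Vdr*, the vitamin D receptor, was at 13.2 to 16.3 and 4.72 to 6.35 CPM (log2 -1.44 ± 0.15). Of 31 genes of microRNA processing and silencing, 3 were called higher and 1 lower (9.68% and 3.23%, beside 7.85% and 11.5% of all genes tested). *Papd5*, a polymerase that adds bases to the 3′ ends of RNAs, microRNAs included, was at 44.8 to 48.3 and 80.0 to 83.3 CPM (log2 0.79 ± 0.07). *Ago3*, an Argonaute protein, was at 3.88 to 4.40 and 5.88 to 7.29 CPM (log2 0.70 ± 0.14). *Tnrc6b*, a scaffold of the silencing complex, was at 73.0 to 80.5 and 41.9 to 57.4 CPM (log2 -0.62 ± 0.11). The call of *Tnrc6b* was lost, at a log2 fold change of -0.46, when a trend on gene length was removed, and at -0.58 and -0.51 without miR-125b replicate 2 or Trim AG replicate 2.

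Most interferon-stimulated genes were called lower with Trim AG. These genes encode antiviral effectors and sensors, and double-stranded RNA can raise them in transfected cells. Of 27 members tested, 16 were called lower and 1 higher, with a median of -0.75. *Irf7*, which amplifies interferon, was at 22.1, 18.2 and 17.7 CPM with miR-125b, 10.5, 9.51 and 8.82 CPM with Trim AG and 22.1 to 24.8 CPM with MC (log2 -1.01 ± 0.12, adjusted p = 0.00040, edgeR). *Irf1*, another factor of this family, was at 14.4 to 14.6 and 5.83 to 7.81 CPM (log2 -1.03 ± 0.13). *Ifi44*, an antiviral effector, was at 14.96 to 17.99 and 6.68 to 8.49 CPM (log2 -1.07 ± 0.13). The list sum was 726 to 788 CPM with miR-125b, 561 to 627 CPM with Trim AG and 902 to 929 CPM with MC.

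Cytokine and NF-kB genes were called higher for 4 of 25 members and lower for 5. *Cxcl12*, a chemokine of stromal cells, was at 254 to 272 CPM with miR-125b and 84.4 to 99.6 CPM with Trim AG (log2 -1.49 ± 0.08). *Ptgs2*, cyclooxygenase 2, was at 32.2 to 33.1 and 70.9 to 85.3 CPM (log2 1.26 ± 0.08). *Il6*, an inflammatory cytokine, was at 6.64 to 8.43 and 12.3 to 14.9 CPM (log2 0.77 ± 0.13).

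Of the genes that hypoxia-inducible factor (HIF) switches on, glycolysis genes were called lower for 5 of 26 members and higher for 0. *Pfkm*, the muscle form of phosphofructokinase, was at 74.3, 70.9 and 74.95 CPM with miR-125b and 25.3, 16.7 and 22.6 CPM with Trim AG (log2 -1.77 ± 0.14). *Slc16a1*, a lactate transporter, was at 68.3 to 72.6 and 37.3 to 38.3 CPM (log2 -0.91 ± 0.07), and *Gpi*, a glycolytic isomerase, at 394 to 409 and 198 to 262 CPM (log2 -0.81 ± 0.10). All 3 were highest with MC, where *Pfkm* was at 115 to 122 CPM, *Slc16a1* at 83.4 to 87.7 CPM and *Gpi* at 577 to 600 CPM. HIF targets outside glycolysis were called higher for 3 of 30 members and lower for 6. Among them *P4ha1*, a collagen prolyl hydroxylase, was at 480 to 492 and 219 to 244 CPM (log2 -1.07 ± 0.07).

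Growth factor, lipid and lysosome genes gave calls in both directions. Shares called higher and lower were 11.4% and 15.9% for TGF-beta and BMP genes and 7.69% and 15.4% for lipid genes. They were 2.33% and 14.0% for the autophagy and lysosome list, beside 7.85% and 11.5% of all genes tested. TGF-beta and BMP pathway genes were called higher for 5 of 44 members and lower for 7, or for 11 without Trim AG replicate 1. *Tgfb3*, a TGF-beta ligand, was at 111 to 114 CPM with miR-125b and 320 to 344 CPM with Trim AG (log2 1.57 ± 0.07). *Ltbp3*, which stores latent TGF-beta in the matrix, was at 205 to 215 and 47.1 to 99.5 CPM (log2 -1.57 ± 0.23), and *Chrd*, a secreted BMP antagonist, at 32.7 to 33.9 and 8.49 to 15.3 CPM (log2 -1.55 ± 0.18). Cholesterol and fatty acid synthesis genes were called higher for 3 of 39 and lower for 6, or for 3 without Trim AG replicate 2. *Scd2*, a fatty acid desaturase, was at 406 to 427 and 85.4 to 160 CPM (log2 -1.78 ± 0.19), *Abca1*, a cholesterol exporter, at 13.1 to 16.2 and 4.39 to 7.93 CPM (log2 -1.34 ± 0.20), and *Idi1*, an isomerase of cholesterol synthesis, at 6.04 to 8.24 and 9.61 to 14.3 CPM (log2 0.75 ± 0.17).

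Autophagy, lysosome and mitochondrial dynamics genes were called higher for 1 of 43 members and lower for 6, and without Trim AG replicate 1 or miR-125b replicate 1 for 3 or 2 higher. *Lamp1*, an abundant lysosomal membrane protein, was at 819, 808 and 819 CPM with miR-125b, 277, 229 and 257 CPM with Trim AG and 804 to 817 CPM with MC (log2 -1.69 ± 0.08, adjusted p = 1.4e-05, edgeR). *Ctsd*, the lysosomal protease cathepsin D, was at 442 to 464 and 176 to 221 CPM (log2 -1.21 ± 0.09). *Mff*, a receptor for mitochondrial fission, was at 40.8, 30.4 and 14.3 CPM with miR-125b and 1.89, 1.148 and 2.69 CPM with Trim AG (log2 -3.89 ± 0.42). The miR-125b libraries of *Mff* spread widely but stayed above those of Trim AG.

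Respiratory chain genes held few calls, in numbers that moved with single libraries. Of 66 nuclear respiratory chain genes, 1 was called higher and 1 lower, with a positive log2 fold change in 60. Without Trim AG replicate 1, the one with the lowest mitochondrial share, 8 were called higher, and without Trim AG replicate 3 or miR-125b replicate 1, 2 were. *Cox6a1*, a cytochrome oxidase subunit, was at 251 to 261 and 393 to 451 CPM (log2 0.74 ± 0.08). The gene called lower, *Ndufa1* of complex I, was named after its values were seen, at 14.4, 7.83 and 0.314 CPM with miR-125b and 0.2596, 0.275 and 0.322 CPM with Trim AG. Replicate 3 of miR-125b for *Ndufa1* was as low as those of Trim AG, so that the groups overlapped. Of 11 genes of the mitochondrial genome, 1 was called higher, *Mt-nd4l*, at 205 to 227 CPM with miR-125b and 273, 485 and 376 CPM in Trim AG replicates 1 to 3, in the order of the mitochondrial share. Without replicate 2 it was not called (log2 0.58), and without replicate 1 4 of the 11 were called higher. Of 54 cytosolic ribosomal protein genes, 1 was called higher and 0 lower. The called gene, *Rpl7a*, was at 38.9 to 52.9 CPM with miR-125b and 123, 50.004 and 214 CPM with Trim AG, so that the groups overlapped. No ribosomal gene was called higher without Trim AG replicate 3, miR-125b replicate 1 or miR-125b replicate 2, and 2 were without Trim AG replicate 2. Of 37 heat shock and antioxidant genes, 2 were called higher and 1 lower, or 2 lower without Trim AG replicate 1 or 2. *Txnrd1*, a thioredoxin reductase, was at 423 to 444 and 674 to 807 CPM (log2 0.76 ± 0.08), and the level of *Hsp90aa1*, a stress-inducible chaperone, was 2.26 to 4.496 and 6.15 to 7.34 CPM (log2 1.09 ± 0.24), a gene whose reads near-identical copies can share.

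The largest changes in each direction, 5 a side, were taken among called genes with a symbol, at least 1 CPM on average and no overlap between the groups. The genes that rose were *Acta1*, *Usp15*, *Abhd10*, *Nek2* and *Btk*. *Usp15*, a deubiquitinase that stabilises TGF-beta receptors, was at 63.4, 67.4 and 66.8 CPM with MC, at 18.4, 18.3 and 18.5 CPM with miR-125b and at 106, 141 and 126 CPM with Trim AG (log2 2.75 ± 0.11, adjusted p = 1.0e-05, edgeR). The 3 groups of *Usp15* did not overlap, with miR-125b below MC and Trim AG above it. *Abhd10*, a mitochondrial hydrolase, was at 0.432 to 0.877 and 2.21 to 6.42 CPM (log2 2.57 ± 0.43). In normoxia the log2 fold change of *Abhd10* had the opposite sign, at -2.86. *Btk*, a kinase known from B cells, was at 0.232 to 0.503 and 1.63 to 2.85 CPM (log2 2.34 ± 0.35).

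The genes that fell were *Brms1*, *Ogn*, *Mff*, *Senp5* and *Hprt1*. *Brms1*, a subunit of histone deacetylase complexes, was at 7.80, 6.95 and 1.01 CPM with miR-125b and 0.161 to 0.225 CPM with Trim AG (log2 -4.70 ± 0.75). *Senp5*, a SUMO protease, was at 5.28, 8.80 and 0.472 CPM and at 0.299 to 0.374 CPM (log2 -3.82 ± 0.86). *Hprt1*, a purine salvage enzyme often used as a reference gene, was at 0.930, 0.751 and 19.3 CPM with miR-125b and 0.448 to 0.599 CPM with Trim AG (log2 -3.67 ± 1.19). A single miR-125b library was high for *Hprt1*, as was 1 of the 3 MC libraries, at 19.0 CPM against 0.664 and 0.748. Without that miR-125b library the log2 fold change of *Hprt1* was -0.61 and it was not called, nor was it without any 1 of the Trim AG libraries (adjusted p = 0.0524 to 0.099, edgeR).

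The same contrast in normoxia shared no library with the hypoxia comparison. Of 14864 genes tested there, 1127 (7.58%) were called higher and 946 (6.36%) lower. Of the genes higher in hypoxia, 495 were also called higher in normoxia, which is 41.2% of the hypoxia list and 43.9% of the normoxia list. Of the genes lower in hypoxia, 482 were called lower in normoxia, 27.4% and 51.0% of the lists. Calls of opposite direction were made for 10 genes higher and 34 genes lower in hypoxia. The difference between the 2 effects was tested by an interaction term, which called 1757 of 15603 genes (11.3%).

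Mitosis genes rose at both oxygen levels. All 39 were called higher in normoxia, with a median of 1.16, and the interaction was called for 7 of them, each with the larger effect in hypoxia. *Cep55* had a log2 fold change of 1.53 in normoxia and 2.18 in hypoxia (interaction 0.64, adjusted p = 0.0087, edgeR). In normoxia the list sum was higher in both groups, at 2452 to 3076 CPM with miR-125b and 6315 to 6701 CPM with Trim AG. Replication genes were called higher for 33 members in normoxia and lower for 1. *Actb* was lower at both oxygen levels, with -1.03 in normoxia and -0.89 in hypoxia.

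Interactions were also called for matrix and muscle genes. In normoxia 8 collagen genes were called lower and 2 higher, with a median of -0.31, and the interaction was called for 16 members of the list, each with the lower value in hypoxia. *Col6a3* had 0.45 in normoxia and -1.89 in hypoxia (interaction -2.35, adjusted p = 0.0010, edgeR). *Bgn* was lower at both, with -1.50 in normoxia and -3.60 in hypoxia (interaction -2.11, adjusted p = 0.00048). The normoxia libraries of Trim AG had mitochondrial shares of 3.52% to 3.66%, within the range of 3.44% to 3.80% in those of miR-125b. Contractile genes were called higher for 12 members in normoxia and lower for 0. *Tnnt2* had 1.29 in normoxia and -1.40 in hypoxia (interaction -2.70, adjusted p = 3.6e-05), at means of 11.998 CPM with miR-125b and 29.5 CPM with Trim AG in normoxia. *Myog* had 0.12 in normoxia and -2.49 in hypoxia (interaction -2.62, adjusted p = 4.7e-07).

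Cells switch on unfolded protein and integrated stress response genes when proteins misfold or amino acids run short. The effect of Trim AG on these genes differed between hypoxia and normoxia, between which oxygen and medium changed together. In hypoxia 5 of 47 members (8 without Trim AG replicate 1) were called higher and 4 lower, with a median of 0.11, whereas in normoxia 0 were called higher and 18 lower, with a median of -0.49. The interaction was called for 22 members, each with the higher value in hypoxia. *Asns*, which makes asparagine under the control of ATF4, was at 255, 258 and 254 CPM with miR-125b and 383, 482 and 431 CPM with Trim AG in hypoxia (log2 0.75 ± 0.09), and had a log2 fold change of -0.86 in normoxia (interaction 1.60, adjusted p = 1.2e-05, edgeR). *Trib3*, an ATF4-induced pseudokinase chosen after its values were seen, was at 460 to 471 and 530 to 568 CPM in hypoxia and at 159 to 170 and 38.8 to 47.5 CPM in normoxia (interaction 2.14). Not all members followed this. *Aldh1l2*, a mitochondrial folate enzyme, was lower with Trim AG at both oxygen levels (log2 -1.68 ± 0.10 in hypoxia and -1.61 in normoxia), as was *Eif2ak3*, which encodes the stress sensor PERK (-0.92 ± 0.08 and -0.91).

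**Figure D5:**
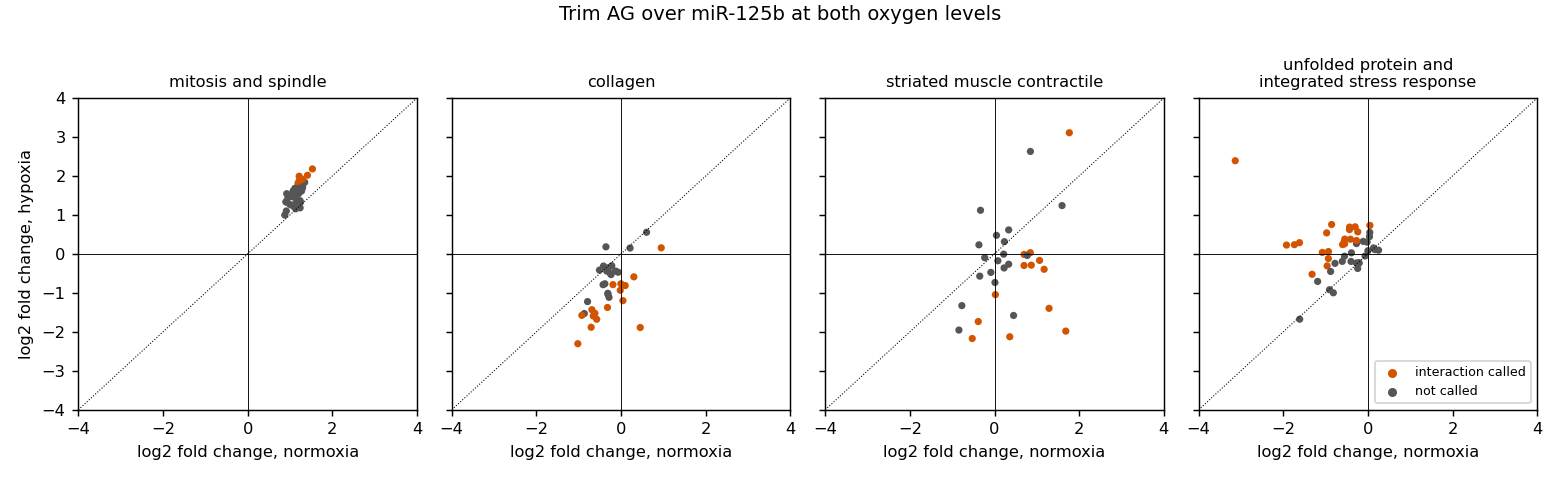
Log2 fold change of Trim AG over miR-125b in hypoxia (vertical axis) against that in normoxia (horizontal axis) for members of 4 gene lists tested at both oxygen levels, with the line of equal effects dotted. Orange points have a called interaction. Among all members tested for it, it was called for 7 of the mitosis genes, 16 of the collagen genes and 22 of the stress response genes. Of the contractile genes, 12 had a called interaction with the lower value in hypoxia and 1 with the higher. The mitosis genes lie above 0 at both oxygen levels.

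The neighbouring isomiRs in hypoxia were set beside Trim AG for the same genes. These comparisons all use the miR-125b libraries, so the values stand side by side without a test of their difference. Over the mitosis list, the median log2 fold change against miR-125b was 1.54 for Trim AG, beside 0.58 with Trim A and 1.47 with Trim AGU. Over the collagen list it was -0.80 for Trim AG, -0.48 for Trim A and -0.73 for Trim AGU. In the order Trim A, Trim AG, Trim AGU, *Cep55* had 0.88, 2.18 and 2.05, and *Acta1* 0.77, 3.11 and 1.84. *Usp15* had 2.52, 2.75 and 2.50, so that the gene was high with each of the 3 shortened forms. *Lamp1* had -0.00, -1.69 and 0.08, *Myog* -0.60, -2.49 and -0.61, and *Tnnt2* -0.50, -1.40 and 0.05. *Bgn* had -0.46, -3.60 and -0.58, and *Bmf* -0.54, -1.36 and -0.67. For these 5 genes the largest decrease of the 3 was that of Trim AG. Genes were named for their change with Trim AG or from the study's text, so this rank follows in part from their choice. The Trim AGU libraries also differed more from each other, at a mean distance of 0.859 in log2 CPM against 0.514 in Trim AG.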

How the data were processed

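Poly-A RNA of H9C2 cells was sequenced in non-stranded libraries, so overlapping, antisense and near-identical genes are uncertain. The authors deposited raw counts per gene and library, made with HISAT2 and StringTie per the submitters' processing notes. Versions and the genome build are not given in the sources used here, so no coordinates of the files are printed. Count columns of 11 tables (33 libraries, 24275 genes, 1439 without a name) were joined, and 0 counts conflicted between tables. The same tables hold normalized counts, FPKM values and the authors' own DESeq2 results, which were not used, and counts of MC in normoxia were not analysed here. Of 312 names with more than 1 identifier, the identifier with the highest count was kept in lists. Counts were tested with edgeR 4.0.16 (R 4.3.3), with TMM normalization, the filterByExpr filter and the quasi-likelihood test on the libraries of the groups compared. The SE was obtained by dividing each log2 fold change by the root of its F statistic. CPM used TMM factors over all 33 libraries. Genes were named if they were among the 5 with the largest change per direction, among up to 3 called genes per list with at least 5 CPM, or in the study's text, and any other gene is marked as picked with its values in view. Members and lists were chosen with earlier results of these data known. Alternatives were DESeq2 1.42.0, RLE size factors, no filter, the replicate number as a block, a joint fit per oxygen level, thinned counts, a lowess length trend removed (span 0.3), other fold thresholds and each library left out. The edgeR and DESeq2 steps were tested on simulated data. Tables were made with Python 3.11.15, pandas 2.3.3, numpy 2.4.6 and matplotlib 3.10.9, and sequences are RefSeq's of GRCr8. One gene of the study's text and the list of its targets are not reported here. Replicates differed by more than sampling noise and were each kept. The depth of 28361216 to 42672584 counts per library limits genes under about 1 CPM most.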

Additional observations from a re-analysis of the deposited data

Results flagged for a closer look

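The effect of Trim AG against miR-125b differed between hypoxia and normoxia, by the called interaction term of edgeR, for 44 of the 84 named genes, against 11.3% of all genes. Named genes were chosen on the hypoxia contrast, so their share is a description. Values are the log2 effect in hypoxia minus that in normoxia, in which medium changed together with oxygen.

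The effect was more positive in hypoxia for the genes that follow, in no order of function, with differences of *Acta1* 1.33, *Actg2* 0.78, *Cnn1* 0.71, *Lmod1* 0.81, *Cdca3* 0.59, *Cep55* 0.64, *Hmmr* 0.76, *Nek2* 0.66, *Usp15* 1.03, *Tgfb3* 1.16, *Edn1* 0.93, *Dusp1* 0.93 and *Ier3* 0.66. Further ones were *Asns* 1.60, *Il6* 1.203, *Tp53inp1* 0.65, *Txnrd1* 0.79, *Mt-nd4l* 1.01 and *Abhd10* 5.42.

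It was more negative in hypoxia for *Bgn* -2.11, *Ogn* -3.97, *Fmod* -2.37, *Mmp14* -0.79, *Col3a1* -1.19, *Col6a3* -2.35, *Lox* -1.29, *Ltbp3* -1.02 and *Chrd* -1.04. It was also more negative for *Myog* -2.62, *Tnnt2* -2.70, *Mybph* -1.36, *Igfbp5* -1.93, *Cacnb1* -0.70 and *Pfkm* -1.47. Other genes were *Bmf* -1.66, *Irf1* -0.64, *Cxcl12* -0.98, *Vdr* -1.27, *Klf13* -0.99, *Gpi* -0.85 and *Scd2* -1.27. *Brms1* (-4.67), *Mff* (-5.69) and *Hprt1* (-6.92) had single libraries far from the others of their group.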

How the results depend on the processing

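At the same thresholds, 78 of the 84 named genes were called or uncalled as reported in every alternative fit, and none of the 76 called ones changed direction. Of those 76, 57 also passed a fold of 2. With a fold threshold of 2, 430 genes were higher and 753 lower in hypoxia, 427 and 298 in normoxia, and 638 had an interaction. With no fold threshold these counts were 3194, 3142, 2817, 2906 and 3538. Leaving out each library in turn gave 1029 to 1495 higher and 1455 to 2132 lower in hypoxia, 1051 to 1171 and 848 to 933 in normoxia, and 1388 to 2545 interactions, where the cause was not tested. DESeq2 called 1224 and 1683 in hypoxia, 1060 and 887 in normoxia, and 1797 interactions. Same-numbered libraries of miR-125b and Trim AG did not deviate together (r from -0.0505 to 0.0168), so numbers were not taken as pairs, and the replicate block gave 1141 and 1717 in hypoxia, 1102 and 913 in normoxia, and 1653 interactions. Calls were lost for *Abhd10* (adjusted p = 0.0642) and *Hprt1* (0.0992) with all hypoxia libraries in 1 edgeR fit, for *Hprt1* also with the replicate block (0.0653) and without each of 4 libraries in turn (0.0524 to 0.217), and under some alternatives for *Tnrc6b*, *Mt-nd4l*, *Rpl7a* and *Tp53inp1*. Of the uncalled genes, 3 near 0 changed sign. *Casp2* had 0.0025 with DESeq2, 0.043 with the length trend removed, 0.0060 with no filter, and -0.045 to 0.054 without a library. *Klf13* ranged from -0.25 to 0.11 without a library. *Bax* had -0.028 with the length trend removed and -0.022 to 0.052 without a library. Depth limits genes under about 1 CPM, such as *Tnfrsf1b*.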

Other observations

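Further gene families, chosen after their values were seen, are given as counts without a test of the family. Semaphorins, which guide axons and vessels, were called lower with Trim AG in hypoxia for 9 of 15 members and higher for 0, with a median log2 fold change of -0.90. *Sema3f* was at 31.6, 27.9 and 31.2 CPM with miR-125b and 12.6, 7.39 and 7.78 CPM with Trim AG. ADAM and ADAMTS proteases were called lower for 18 of 30 and higher for 0 (median -0.77), and protocadherins for 12 of 35 and 0 (median -0.49). In Trim AG replicates 1 to 3 the ADAM and ADAMTS sums were 1244, 858 and 1026 CPM and the protocadherin sums 298, 209 and 245 CPM, against 1508 to 1607 and 338 to 363 CPM with miR-125b, in the reverse order of the mitochondrial share, whose part was not tested. Genes of the Notch pathway were called lower for 7 of 14 and higher for 1. *Notch3*, a receptor of mural cells, was at 33.6, 35.3 and 40.6 CPM with miR-125b and 20.4, 6.54 and 12.2 CPM with Trim AG, lowest in the replicate with the highest mitochondrial share.

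Lysosomal proteins were called lower for 17 of 41 members and higher for 1 (median -0.51). Centromere proteins were called higher for 12 of 18 members and lower for 0 (median 1.09). *Itgb1*, the shared beta subunit of many integrins, was the integrin called higher of 19 tested, against 6 called lower, beside 7.85% and 11.5% of all genes. It was at 1636, 1653 and 1660 CPM with MC, at 746, 772 and 757 CPM with miR-125b and at 1671, 1762 and 1671 CPM with Trim AG. As for *Acta1* and *Bak1*, the Trim AG level of *Itgb1* was near that of MC.

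*Nupr1*, a stress-induced chromatin protein, was chosen after its values were seen. It was at 221 CPM in Trim AG replicate 1 and at 13.5 and 15.4 CPM in the others. With miR-125b it was at 15.2 to 16.6 CPM, and it was not called.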
